A study of Mus musculus with 6 samples.

Results

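Integrins and tetraspanins are surface protein families that hold cells to matrix and to other cells and organise the membrane around those contacts. Their genes were taken as the probe sets with a single gene symbol that starts with Itga, is Itgb1 to Itgb8, starts with Tspan and a digit, or is Cd9, Cd37, Cd53, Cd81, Cd82 or Cd151, with the probe set of highest mean kept for each symbol. This gave 51 of 19938 genes measured, 26 integrin subunits and 25 tetraspanins. They were compared between 2 macrophage subsets sorted from regenerating mouse muscle, with 3 Ly6C- F4/80high and 3 Ly6C+ F4/80low samples, 1 of each from each of 3 mice, called F4/80high and F4/80low cells from here on. All mice were of the strain B6.129P2-Lyzstm1(cre)Ifo/J, in which Cre recombinase is expressed from the lysozyme locus, mainly in myeloid cells. The labels name no floxed allele and give neither age nor sex. Cardiotoxin, a snake venom component that destroys muscle fibres, had been injected into the tibialis anterior, and the muscle was taken on day 2. CD45+ cells were enriched on magnetic beads before the sort, so every sample is a sorted population and not a single cell type by construction. All mice carried Cre and all muscles were injured, so no uninjured muscle and no blood monocytes enter the comparison. In such bulk samples fewer cells of a type and less RNA per cell cannot be told apart.

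An integrin is a dimer of an alpha and a beta subunit, and the pair decides the ligand. Leukocytes carry the beta2 family, which binds ICAM proteins and complement fragments, along with receptors for fibronectin, vitronectin, laminin and collagen. Tetraspanins are small proteins that cross the membrane several times, bind integrins, immunoglobulin-family proteins and the protease ADAM10 side by side, and gather them into membrane patches. In macrophages they are known for roles in adhesion, migration, phagocytosis and the restraint of cell fusion.

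Promoter windows are shown for a pair of tetraspanin genes that were higher in the F4/80high cells, Tspan4 and Cd9, and for an integrin and a tetraspanin gene that were lower, Itga1 and Tspan13, so that the start regions of genes moving in opposite directions can be read side by side. Each runs 5′ to 3′ along the gene from 250 bases before the annotated start to 50 bases after it and is taken from RefSeq, build GRCm38.p6. Tspan4 has 2 annotated starts, and the second is printed; the window of the first holds 3 GC boxes and none of the other motifs marked here. The windows lie at chr7:141476130-141476429, plus strand, for Tspan4, at chr6:125494711-125495010, minus strand, for Cd9, at chr13:115101915-115102214, minus strand, for Itga1, and at chr12:36042429-36042728, minus strand, for Tspan13. Capitals mark matches on either strand to AGGAAG (the core bound by PU.1 and other ETS factors), TGANTCA (AP-1), CACGTG (the E-box of MITF and TFE factors) and GGGCGG (the GC box of Sp1), and overlapping matches would run together.
Tspan4: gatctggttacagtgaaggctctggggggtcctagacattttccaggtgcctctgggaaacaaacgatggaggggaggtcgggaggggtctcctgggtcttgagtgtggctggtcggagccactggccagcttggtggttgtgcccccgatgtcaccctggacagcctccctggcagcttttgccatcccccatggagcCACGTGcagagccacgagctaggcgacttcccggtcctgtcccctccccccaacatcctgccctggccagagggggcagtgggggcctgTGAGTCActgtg
Cd9: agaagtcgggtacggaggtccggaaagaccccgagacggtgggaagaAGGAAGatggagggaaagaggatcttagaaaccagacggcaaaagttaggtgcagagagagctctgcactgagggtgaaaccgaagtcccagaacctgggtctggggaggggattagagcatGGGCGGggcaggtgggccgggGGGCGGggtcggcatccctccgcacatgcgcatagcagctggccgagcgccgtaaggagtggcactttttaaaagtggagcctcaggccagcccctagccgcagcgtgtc
Itga1: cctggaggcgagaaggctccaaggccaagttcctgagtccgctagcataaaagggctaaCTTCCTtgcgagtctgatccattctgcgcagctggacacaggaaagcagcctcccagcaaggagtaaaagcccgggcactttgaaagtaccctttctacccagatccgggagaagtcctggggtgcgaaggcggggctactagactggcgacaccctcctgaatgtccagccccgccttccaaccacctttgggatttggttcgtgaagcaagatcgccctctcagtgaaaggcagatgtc
Tspan13: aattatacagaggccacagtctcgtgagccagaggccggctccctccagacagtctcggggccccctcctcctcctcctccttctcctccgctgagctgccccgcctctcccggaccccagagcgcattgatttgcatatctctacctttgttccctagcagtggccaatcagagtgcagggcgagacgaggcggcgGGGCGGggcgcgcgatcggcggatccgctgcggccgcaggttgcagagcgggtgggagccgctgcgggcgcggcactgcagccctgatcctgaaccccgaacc
The second Tspan4 window holds a CACGTG starting 51 bases before the start site and an AP-1 match in the transcribed part. The Cd9 window holds 1 AGGAAG and 2 GC boxes, that of Itga1 holds 1 AGGAAG read on the other strand, and that of Tspan13 holds 1 GC box. Windows were found for 42 of the 51 genes. Over 32851 windows of this length in the same table, 35.4% hold AGGAAG, 7.81% TGANTCA, 7.15% CACGTG and 35.7% GGGCGG. Among the 42 genes, AGGAAG occurs in a window of 4 of 11 genes called higher, 5 of 12 called lower and 10 of 19 not called. In the same order TGANTCA occurs in 3, 1 and 1 genes, CACGTG in 2, 0 and 0, and GGGCGG in 7, 4 and 10. These matches are descriptions of sequence, and genes with several starts have several windows in which a match can fall.

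Of the 51 genes 26 were called different, 12 with higher and 14 with lower levels in F4/80high cells, against 33.8% of all 19938 genes, of which 19.5% were higher and 14.3% lower. The call needed a limma p under 0.05 after Benjamini-Hochberg adjustment across all 19938 genes, and such p-values measure the spread between these samples of 3 mice. Each difference is the mean log2 value of the F4/80high arrays less that of the F4/80low arrays, n = 3 each, with its standard error (SE). The 26 called genes had the same sign in all 3 mice. For 30 of the 51 genes all arrays of one subset lay above all of the other, against 48.1% of all genes. Of the integrin genes 5 were higher and 9 lower, and of the tetraspanin genes 7 were higher and 5 lower. The median difference was -0.10 over the 51 genes and -0.06 over all genes. The balance of directions depended on the scaling. When the arrays were set to a common median, 15 of the 51 genes were called higher and 9 lower, and over all genes 4789 were higher and 1737 lower, against 3887 and 2861 as deposited. Differences of at least 2-fold were called for 8 of the 51 genes, 5 higher and 3 lower, against 2.92% of all genes, 1.91% higher and 1.02% lower.

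**Figure D1:**
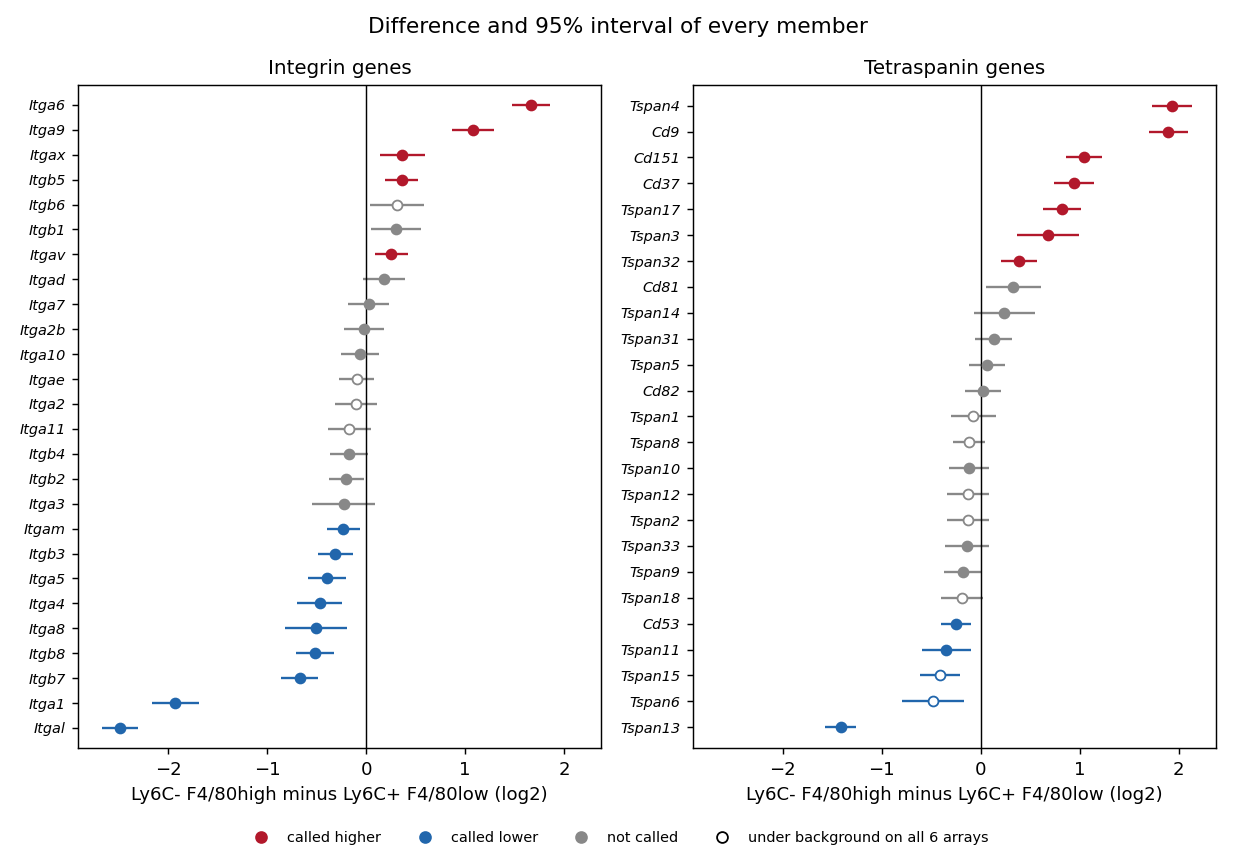
Difference between the subsets (x axis, log2, F4/80high minus F4/80low) for 26 integrin genes on the left and 25 tetraspanin genes on the right, with 95% intervals from limma. Tspan4 at 1.93 and Itgal at -2.48 are the ends of the range, and open symbols mark the 11 genes under background on all 6 arrays.

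Levels are log2 values on which different probe sets cannot be compared, so each gene is set only against itself. Background was set at 5.44, the level under which 95% of 1194 olfactory and vomeronasal receptor genes lay on average. By that level 40 of the 51 genes were above background on at least 1 array, 22 integrins and 18 tetraspanins. Among the 13254 genes of the whole array that met the same condition, 44.1% were called, 28% higher and 16% lower, 4.38% by at least 2-fold (2.86% higher, 1.52% lower), and 59.4% did not overlap. Of the 40 genes 12 were called higher and 12 lower, a count given as a description, since the condition favours genes that are high in 1 subset. The other 11 were Itga2, Itga11, Itgae, Itgb6, Tspan1, Tspan2, Tspan6, Tspan8, Tspan12, Tspan15 and Tspan18, with values from 3.06 to 5.41. Tspan6 and Tspan15 were called lower among them, at -0.48 (SE 0.14, limma adjusted p = 0.0253) and -0.41 (SE 0.09, limma adjusted p = 0.0058), differences that lie wholly under background and have no bound. Tspan6 was not called when any 1 array other than the F4/80low array of mouse 3 was left out (adjusted p 0.0501 to 0.0722) or after any of the 3 other scalings (0.0513 to 0.0639), nor was it without mouse 1 (0.0875) or mouse 2 (0.128). Tspan15 was not called without mouse 1 (0.0560) or mouse 3 (0.0644). Itgb6, the epithelial partner of alpha v, was not called at 0.31 (SE 0.12, limma adjusted p = 0.0733) but passed with the mouse as a replicate block (adjusted p = 0.0199), after the 3 other scalings (0.0141 to 0.0231) and without the F4/80low array of mouse 2 (0.0337). Its values ran from 3.67 to 4.37.

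The beta2 family, the main integrins of leukocytes, differed by subunit. Itgal, the alpha chain of LFA-1, which binds ICAM proteins during leukocyte arrest, had the largest difference of the 51 genes. Itgal stood at 9.05, 8.89 and 9.09 in the F4/80low cells of mice 1, 2 and 3 and at 6.49, 6.59 and 6.50 in the F4/80high cells. All 3 F4/80high arrays were far below the others and still above background. T cells also carry LFA-1. Of 7 measured T cell markers 4 were above background, 1 higher and 1 lower, with mean levels of 4.86 to 5.02 in the F4/80high arrays and 5.0002 to 5.04 in the others. Cd3e, of the T cell receptor complex, was above background on all 6 arrays and differed by -0.45 (SE 0.09, limma adjusted p = 0.00287), and Cd28, a costimulatory receptor gene, by 0.57 (SE 0.11, limma adjusted p = 0.00232), while Cd3d and Cd3g were under it on all, and the part of T cells in the Itgal result was not tested. Itgal was 5.59-fold lower in the F4/80high cells, a difference of -2.48 (SE 0.08, limma adjusted p = 5.77e-08), and ranked 27th of 19938 genes by size of difference. Its partner Itgb2, the common beta chain, stood at 11.42, 11.33 and 11.43 in the F4/80low cells and 11.12, 11.30 and 11.17 in the F4/80high cells. The Itgb2 arrays did not overlap, but the lowest and highest arrays of the subsets nearly met in mouse 2, and the difference of -0.20 (SE 0.08, limma adjusted p = 0.0826, 95% interval -0.38 to -0.02) did not pass the threshold. Itgb2 was called on leaving out the F4/80high array of mouse 2 (-0.25, adjusted p = 0.0463), after cyclic loess normalization (-0.24, 0.0448) and with a trended robust variance prior (0.0225).

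Itgam, the alpha chain of the complement receptor Mac-1 and the gene of CD11b, stood at 11.18, 11.18 and 11.26 in the F4/80low cells and at 10.91, 11.05 and 10.97 in the F4/80high cells. The arrays did not overlap, and Itgam was lower by a small margin, at -0.23 (SE 0.08, limma adjusted p = 0.0389). That call was lost with the mouse as a replicate block (adjusted p = 0.0653), with a common median (-0.15, adjusted p = 0.141), without any 1 array except the F4/80high array of mouse 2 (0.0659 to 0.126) and without any 1 mouse (0.0603 to 0.216). Itgax, the alpha chain of another complement receptor and the gene of CD11c, went the other way. Itgax stood at 7.16, 7.54 and 7.43 in the F4/80low cells and at 7.77, 7.78 and 7.68 in the F4/80high cells, where all arrays were higher, by 0.37 (SE 0.10, limma adjusted p = 0.0188). Its difference was largest in mouse 1, and it missed the threshold on leaving out the F4/80low array of mouse 1 (0.26, adjusted p = 0.0522), the F4/80high array of mouse 1 (0.0588), mouse 1 (0.124) or mouse 3 (0.0657), or after quantile normalization (0.28, 0.0603).

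Itgad, the alpha chain known as CD11d, stood at 6.89, 6.72 and 6.78 in the F4/80low cells and at 7.15, 6.86 and 6.91 in the F4/80high cells. The subsets overlapped, and the difference was 0.18 (SE 0.10, limma adjusted p = 0.174, 95% interval -0.03 to 0.39). Itgad was the one gene of the 51 with a second probe set of its own, which gave -0.17 (SE 0.14, limma adjusted p = 0.407 over all probe sets) at a mean of 5.34, under background on 4 of the 6 arrays.

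**Figure D2:**
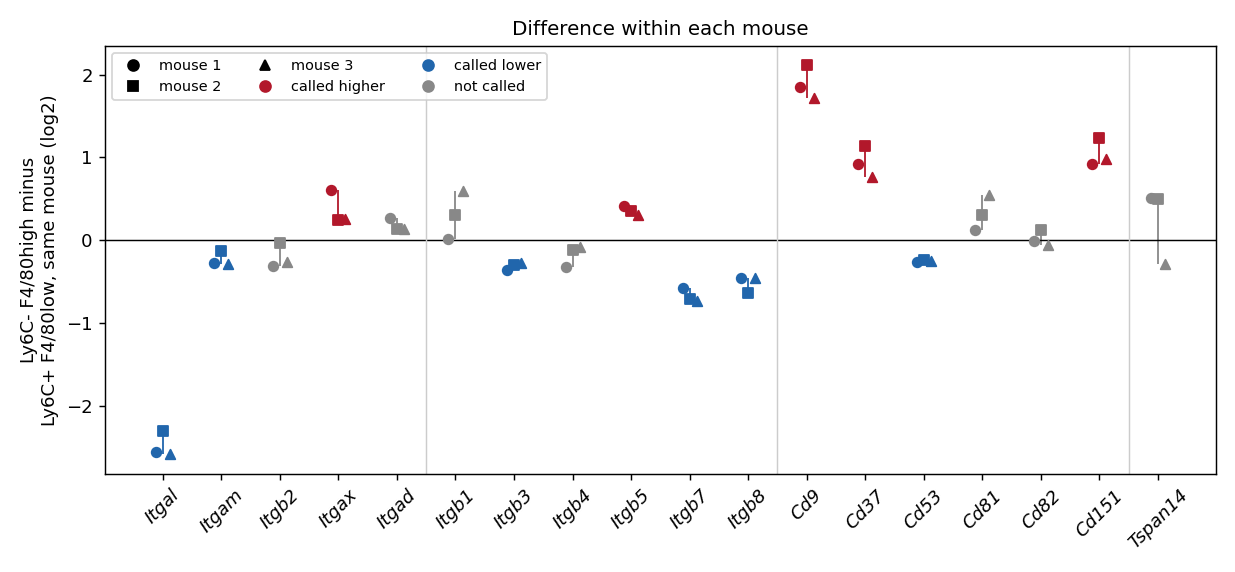
Difference between the subsets within each mouse (y axis, log2) for the beta2 family, the other beta subunits above background, the tetraspanins with CD names and Tspan14, with 1 symbol per mouse joined by a line and coloured by the call over all 6 arrays. Itgal lies between -2.58 and -2.30 and Cd9 between 1.72 and 2.11, while Tspan14 has opposite signs, 0.51 and 0.50 in mice 1 and 2 and -0.29 in mouse 3.

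Among the collagen-binding alpha subunits Itga1 was lower in the F4/80high cells, and the others were low or not called. Itga1, which pairs with beta1 as a collagen and laminin receptor, stood at 7.38, 7.52 and 7.52 in the F4/80low cells and at 5.55, 5.75 and 5.34 in the F4/80high cells. The subsets were well apart, and 1 of the 3 F4/80high arrays, that of mouse 3, lay under background. The difference was -1.93 (SE 0.11, limma adjusted p = 1.29e-06), 3.8-fold as measured, and as the lower values lie near background the fold is uncertain in size. Itga2, whose gene is the next coding gene to Itga1, and Itga11 were under background on all arrays, and Itga10 differed by -0.06 (SE 0.09, limma adjusted p = 0.595).

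Itga1 is also a gene of endothelial and stromal cells, and most markers of those cells were lower in the same samples. Of 7 endothelial markers 6 were above background. Over all 7 markers 5 were called lower and 1 higher, Vwf, by 0.32 (SE 0.10, limma adjusted p = 0.032). Of the lower ones, Tek was under background on all arrays. The mean level of the 7 ran from 5.69 to 5.799 in the F4/80high arrays and from 6.27 to 6.46 in the others. The endothelial cadherin gene Cdh5 differed by -1.51 (SE 0.10, limma adjusted p = 3.4e-06) and the platelet-endothelial adhesion gene Pecam1 by -0.82 (SE 0.08, limma adjusted p = 4.51e-05), whereas Kdr, a receptor that defines endothelium, differed by 0.11 (SE 0.13, limma adjusted p = 0.53). Of 7 fibroblast markers 5 were above background. Over all 7 markers 6 were lower and 0 higher, with mean levels of 5.07 to 5.12 and 5.44 to 5.87, F4/80high first. Among the lower ones, Dpt was under background on all arrays. The share called was 85.7% for the endothelial and for the fibroblast markers, against 33.8% of all genes. Dcn, the gene of the matrix proteoglycan decorin, was lower by at least 1.48-fold (limma adjusted p = 0.00783), a bound because its F4/80high arrays were all under background. The part of these markers in the Itga1 difference was not tested.

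Of the 3 laminin-binding alpha subunits Itga6 was called higher and the others were not called. Itga6, which pairs with beta1 or beta4 and binds laminin in basement membranes, stood at 8.78, 8.86 and 8.92 in the F4/80low cells and at 10.51, 10.40 and 10.64 in the F4/80high cells. Every F4/80high array was higher, and the difference was 1.66 (SE 0.09, limma adjusted p = 8.71e-07), 3.17-fold. Itga3, above background on 1 of the 6 arrays, differed by -0.23 (SE 0.14, limma adjusted p = 0.242), and the muscle laminin receptor gene Itga7 by 0.03 (SE 0.09, limma adjusted p = 0.85, 95% interval -0.18 to 0.24). The beta4 partner Itgb4 stood at 5.94, 5.95 and 5.99 in the F4/80low cells and at 5.62, 5.84 and 5.90 in the F4/80high cells, without overlap, a difference of -0.17 (SE 0.09, limma adjusted p = 0.154).

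Itga9, which pairs with beta1 and binds tenascin-C, VCAM-1 and other ligands, likewise had its higher values in the F4/80high subset. Its values were 6.91, 7.05 and 7.22 in the F4/80low cells and 8.06, 8.19 and 8.17 in the F4/80high cells. No arrays overlapped, and the difference of 1.08 (SE 0.09, limma adjusted p = 2.06e-05) is 2.11-fold. The related Itga4, whose product binds VCAM-1 and fibronectin with beta1 or mucosal addressin with beta7, was lower instead, at -0.47 (SE 0.10, limma adjusted p = 0.0054), with -0.44, -0.49 and -0.48 in mice 1, 2 and 3. Its level was 9.82 ± 0.13 (SD, n = 3) in the F4/80low cells and 9.35 ± 0.15 in the F4/80high cells.

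The alpha subunits of the fibronectin and vitronectin receptors changed by small amounts. Itga5, the alpha chain of the classical fibronectin receptor, was lower, at -0.40 (SE 0.09, limma adjusted p = 0.00538), a call that was lost without mouse 3 (-0.35, adjusted p = 0.0642). Itgav, the alpha chain of the vitronectin receptors, was higher by 0.26 (SE 0.08, limma adjusted p = 0.0247), but was not called after quantile normalization (0.21, adjusted p = 0.0560) or cyclic loess (0.20, 0.0660), without any 1 mouse (0.0700 to 0.158), or without the F4/80low array of mouse 1 or 3 or the F4/80high array of mouse 2 or 3 (0.0634 to 0.0721). Itga8, better known from smooth muscle and kidney stroma, differed by -0.50 (SE 0.14, limma adjusted p = 0.0193), with -0.17, -0.999 and -0.34 in mice 1, 2 and 3. That difference rested largely on mouse 2 and was -0.26 without it (adjusted p = 0.117). Itga8 was also not called without mouse 3 (0.0563), without either array of mouse 2 or without the F4/80high array of mouse 3 (0.0571 to 0.0589). Fibroblast markers were lower in the same samples, as given for Itga1, and their part in the Itga8 difference was not tested.

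Itga2b, which with beta3 forms the fibrinogen receptor of platelets, was level between the subsets at 6.0004, 5.95 and 6.06 in the F4/80low cells and 5.98, 6.13 and 5.84 in the F4/80high cells, a difference of -0.02 (SE 0.09, limma adjusted p = 0.892, 95% interval -0.22 to 0.18). Of 7 measured platelet markers 6 were above background and 1 was called, Pf4, a chemokine gene that macrophages also express, at 1.38 (SE 0.15, limma adjusted p = 9.48e-05). The mean level of the 7 platelet markers, Pf4 included, ran from 7.31 to 7.34 in the F4/80high arrays and from 7.15 to 7.28 in the others. The markers not called were Ppbp at -0.08, Gp5 at -0.16, Gp9 at -0.27, Treml1 at -0.16, Tubb1 at 0.04 and Clec1b at 0.04.

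Of the 7 beta subunits other than beta2, 1 was called higher and 3 lower, against 19.5% and 14.3% of all genes. None was called by 2-fold, against 2.92% of all genes. Itgb7, the partner of alpha4 and alphaE in mucosal homing, stood at 8.496, 8.70 and 8.71 in the F4/80low cells and at 7.92, 7.98 and 7.97 in the F4/80high cells. No arrays overlapped, and Itgb7 was lower, at -0.67 (SE 0.08, limma adjusted p = 0.000182). Its partner Itgae was under background on all 6 arrays. Itgb8, which with alpha v releases active TGF-beta from its latent form, stood at 5.79, 6.02 and 5.92 in the F4/80low cells and at 5.34, 5.38 and 5.46 in the F4/80high cells. It was lower, at -0.52 (SE 0.08, limma adjusted p = 0.00108), with 1 of 3 F4/80high arrays above background.

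Itgb5, the alpha v partner used in the uptake of dying cells, was higher in the F4/80high cells. Its values were 10.55, 10.62 and 10.69 in the F4/80low cells and 10.97, 10.98 and 10.996 in the F4/80high cells, a difference of 0.36 (SE 0.07, limma adjusted p = 0.00438) with no overlap. Itgb3, the other vitronectin receptor beta chain, stood low, at 5.86, 5.70 and 5.804 in the F4/80low cells and 5.50, 5.40 and 5.52 in the F4/80high cells, without overlap and with 1 F4/80high array under background. Itgb3 was lower, at -0.31 (SE 0.08, limma adjusted p = 0.0131), and was not called after quantile normalization (adjusted p = 0.0671), cyclic loess (0.0706) or a common median (0.0545), or without mouse 1 (0.0839) or mouse 3 (0.0736).

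Itgb1, the partner of most matrix-binding alpha subunits, stood at 9.67, 9.66 and 9.35 in the F4/80low cells and at 9.68, 9.97 and 9.94 in the F4/80high cells. The arrays did not overlap, although those of mouse 1 differed by only 0.01, against 0.31 in mouse 2 and 0.59 in mouse 3. The difference of 0.30 (SE 0.11, limma adjusted p = 0.0622, 95% interval 0.05 to 0.56) missed the threshold. It passed without mouse 1 (0.45, adjusted p = 0.0346), when just the F4/80high array of that mouse was left out (0.40, 0.0329), with a common median (0.38, 0.0201), with either filter on low genes (0.0412 and 0.0437) and with a trended robust prior (0.0280).

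**Figure D3:**
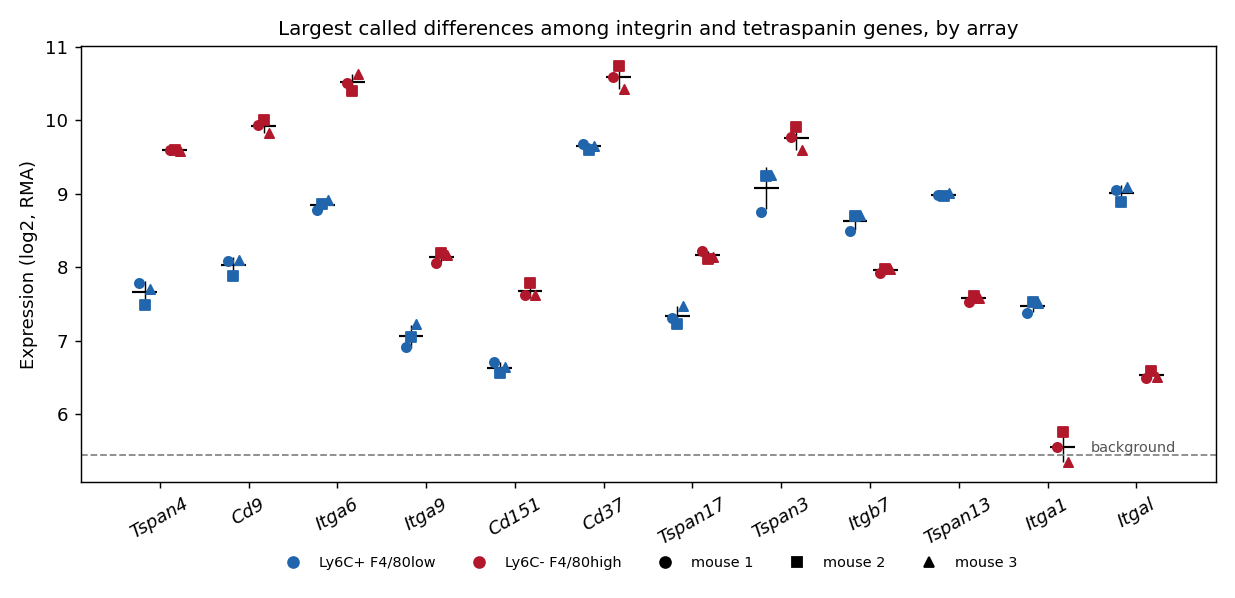
Level (y axis, log2, RMA) of the 12 called integrin and tetraspanin genes with the largest differences, by array, with 1 symbol per mouse, the subset mean as a horizontal bar and 1 SD as a vertical line. Tspan4 to Tspan3 are higher and Itgb7 to Itgal lower in the F4/80high cells, without overlap, and the dashed line is the background at 5.44.

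The tetraspanin genes held the largest positive differences of the set. Tspan4, a tetraspanin enriched in migrasomes, the membrane vesicles that migrating cells leave behind, stood at 7.79, 7.48 and 7.71 in the F4/80low cells and at 9.60, 9.59 and 9.58 in the F4/80high cells. The F4/80high arrays were almost identical and all higher. The difference was 1.93 (SE 0.09, limma adjusted p = 5.1e-07), 3.81-fold.

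Cd9, whose product binds integrins and is known to restrain macrophage fusion, was close behind. Cd9 stood at 8.09, 7.89 and 8.10 in the F4/80low cells and at 9.93, 10.00 and 9.82 in the F4/80high cells, higher by 1.89 (SE 0.09, limma adjusted p = 5.1e-07), 3.71-fold, with no overlap. Cd81, which acts with Cd9 in that restraint, stood at 7.75, 7.38 and 7.57 in the F4/80low cells and at 7.87, 7.69 and 8.11 in the F4/80high cells. The subsets overlapped, and the difference of 0.33 (SE 0.12, limma adjusted p = 0.0679, 95% interval 0.05 to 0.61) missed the threshold. Within the mice the Cd81 differences were all positive, 0.13, 0.31 and 0.55, and with the mouse as a replicate block the gene was called (adjusted p = 0.0423). Cd81 also passed on leaving out the F4/80low array of mouse 1 (0.42, 0.0393) or the F4/80high array of mouse 2 (0.43, 0.0277), with a common median (0.40, 0.0359), with either filter on low genes (0.0465 and 0.0487) and with a trended robust prior (0.0397).

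Cd151, a close binding partner of the laminin receptors, was higher along with Itga6. It stood at 6.71, 6.55 and 6.64 in the F4/80low cells and at 7.63, 7.79 and 7.62 in the F4/80high cells. All arrays of the latter were higher, by 1.04 (SE 0.08, limma adjusted p = 1.1e-05). Cd37, a tetraspanin of blood cells that holds the glucan receptor Dectin-1 at the surface, stood at 9.68, 9.60 and 9.66 in the F4/80low cells and at 10.59, 10.74 and 10.43 in the F4/80high cells. Again nothing overlapped, and the difference of 0.94 (SE 0.09, limma adjusted p = 4.35e-05) is 1.92-fold.

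Cd53, another tetraspanin of blood cells, was nearly fixed within each subset, at 11.98, 11.99 and 11.98 in the F4/80low cells and 11.72, 11.75 and 11.73 in the F4/80high cells. Cd53 was lower, at -0.25 (SE 0.07, limma adjusted p = 0.0195). That call was lost without any 1 mouse (adjusted p 0.0713 to 0.114), with a common median (-0.17, 0.0844), and without the F4/80low array of mouse 2 or the F4/80high array of mouse 1 or 3 (0.0513 to 0.0582). Cd82, which restrains the motility of many cells, stood at 9.34, 9.21 and 9.43 in the F4/80low cells and at 9.33, 9.34 and 9.37 in the F4/80high cells, 0.02 apart (SE 0.08, limma adjusted p = 0.845, 95% interval -0.16 to 0.20).

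The TspanC8 group carries the protease ADAM10 out of the endoplasmic reticulum and steers it to its substrates. Of its 6 genes 1 was called higher and 1 lower, a share of 33.3% called against 33.8% of all genes. Tspan17 stood at 7.31, 7.23 and 7.48 in the F4/80low cells and 8.23, 8.11 and 8.14 in the F4/80high cells. The arrays did not overlap, and Tspan17 was higher by 0.82 (SE 0.09, limma adjusted p = 6.67e-05). The lower gene was Tspan15, already given as under background. Tspan14 had the values 10.10, 10.17 and 10.51 in the F4/80low cells and 10.61, 10.66 and 10.22 in the F4/80high cells. Mice 1 and 2 were higher and mouse 3 lower in the latter, so that the difference of 0.24 (SE 0.14, limma adjusted p = 0.203) was not called, while without mouse 3 it was 0.50 (adjusted p = 0.0110). Tspan5, Tspan10 and Tspan33 differed by 0.06 (SE 0.08, limma adjusted p = 0.564), -0.12 (SE 0.09, limma adjusted p = 0.33) and -0.14 (SE 0.10, limma adjusted p = 0.305). Adam10 itself differed by 0.20 (SE 0.08, limma adjusted p = 0.0619).

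Tspan13 was the tetraspanin with the largest difference toward the F4/80low cells. Tspan13 stood at 8.99, 8.97 and 9.01 there and at 7.53, 7.62 and 7.58 in the F4/80high cells. Replicates lay close together in both subsets, and Tspan13 was 2.67-fold lower in the latter, at -1.42 (SE 0.07, limma adjusted p = 7.86e-07). Tspan3, a broadly expressed tetraspanin, went the other way, at 8.75, 9.24 and 9.25 in the F4/80low cells and 9.77, 9.91 and 9.59 in the F4/80high cells. Its F4/80low array of mouse 1 was the lowest, and the difference was 1.03, 0.67 and 0.34 in mice 1, 2 and 3, 0.68 in all (SE 0.14, limma adjusted p = 0.00429).

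Of the other tetraspanins above background, Tspan32, a gene of blood cells, was higher by 0.39 (SE 0.08, limma adjusted p = 0.00487). Tspan11 was lower, at -0.35 (SE 0.11, limma adjusted p = 0.0373), a call that was lost with the mouse as a replicate block (adjusted p = 0.0648), with a common median (0.0734), without any 1 array but the F4/80high array of mouse 2 (0.0503 to 0.132), and without mouse 1 (-0.20, 0.275) or mouse 3 (0.174). Tspan9 and Tspan31 differed by -0.18 (SE 0.08, limma adjusted p = 0.131) and 0.13 (SE 0.08, limma adjusted p = 0.246). Tspan1, Tspan2, Tspan8, Tspan12 and Tspan18, all under background, were not called; Tspan18 was called without the F4/80high array of mouse 2 (-0.28, adjusted p = 0.0416).

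Genes around the families were read from lists of ligands, activators and partners. Of 35 measured integrin ligand genes 3 were higher and 19 lower in the F4/80high cells, against 19.5% and 14.3% of all genes, with a median of -0.23, and 9 of the 35 were under background on all arrays, among them 5 of the called ones. The higher ligands were Mfge8, which bridges dying cells to the vitronectin receptors, by 1.90 (SE 0.10, limma adjusted p = 9.11e-07), the laminin chain gene Lamc1 by 1.04 (SE 0.08, limma adjusted p = 1.32e-05) and Vwf, the gene of von Willebrand factor, by 0.32 (SE 0.10, limma adjusted p = 0.032). Of the lower ones, Jam2, a junctional adhesion molecule, was lower by at least 1.25-fold (limma adjusted p = 0.000286), a bound because no F4/80high array rose above background. Next by size were Postn (limma adjusted p = 0.00176), under background on all arrays, and Tgfb3. Tgfb3 differed by -0.64 (SE 0.21, limma adjusted p = 0.0389), with overlapping subsets. Icam1, the ligand of LFA-1 and Mac-1, differed by -0.43 (SE 0.07, limma adjusted p = 0.00159), and the fibronectin gene Fn1 by -0.23 (SE 0.07, limma adjusted p = 0.0373). Icam1, Fn1 and the collagen genes that follow were named after their values were seen. Several lower ligands, such as Col1a1, Col1a2, Col3a1 and Col4a1, are made by fibroblasts or endothelium. Most markers of those cells were lower too, but the lists share genes. Col1a1, Col1a2 and Col3a1 are themselves on the fibroblast marker list, and Vwf, which was higher, is on the endothelial list. The part of those cells in the ligand differences was not tested.

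Of 29 measured integrin activators and adaptors 3 were higher and 6 lower, a share of 31.0% called against 33.8% of all genes. Fgr, a Src-family kinase of myeloid cells that signals below beta2 integrins, differed by -1.17 (SE 0.10, limma adjusted p = 1.47e-05), and the adaptor genes Pxn and Ilk by -0.51 (SE 0.09, limma adjusted p = 0.00171) and 0.54 (SE 0.08, limma adjusted p = 0.000422). Fermt3, the kindlin of blood cells, and Tln1, the talin that switches integrins on, differed by -0.04 (SE 0.07, limma adjusted p = 0.699) and -0.05 (SE 0.07, limma adjusted p = 0.627); both were named after their values were seen. Fermt2, a kindlin of adherent tissues, was lower by at least 1.27-fold (limma adjusted p = 0.000262), a bound because no F4/80high array rose above background.

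Among 16 measured partners of tetraspanins 5 were higher and 6 lower, a share of 68.8% called against 33.8% of all genes. Of the 16 genes 3 were under background on all arrays, among them 1 of the lower ones, Dpp4. Ptgfrn and Igsf8, immunoglobulin-family proteins that bind the products of Cd9 and Cd81 directly, were both higher, by 0.90 (SE 0.15, limma adjusted p = 0.00128) and 0.53 (SE 0.09, limma adjusted p = 0.00103), as was the fatty acid receptor gene Cd36 by 1.57 (SE 0.08, limma adjusted p = 6.32e-07). Clec7a, which encodes the Dectin-1 that Cd37 binds, went against Cd37 at -1.51 (SE 0.09, limma adjusted p = 2.53e-06). Of 5 tetraspanin genes with other names, Cd63, a tetraspanin of lysosomes and exosomes, was higher by 1.24 (SE 0.08, limma adjusted p = 2.63e-06), and the other 4 were not called. Of 9 further leukocyte adhesion genes 2 were higher and 4 lower, 66.7% called, and 1 of the lower ones, Jaml, was under background on all arrays. Cd99l2, a gene of leukocyte passage through vessel walls, differed by 1.18 (SE 0.09, limma adjusted p = 8.76e-06). Cd177, a neutrophil antigen that binds Pecam1 and beta2 integrins, differed by -2.25 (SE 0.11, limma adjusted p = 7.5e-07).

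**Figure D4:**
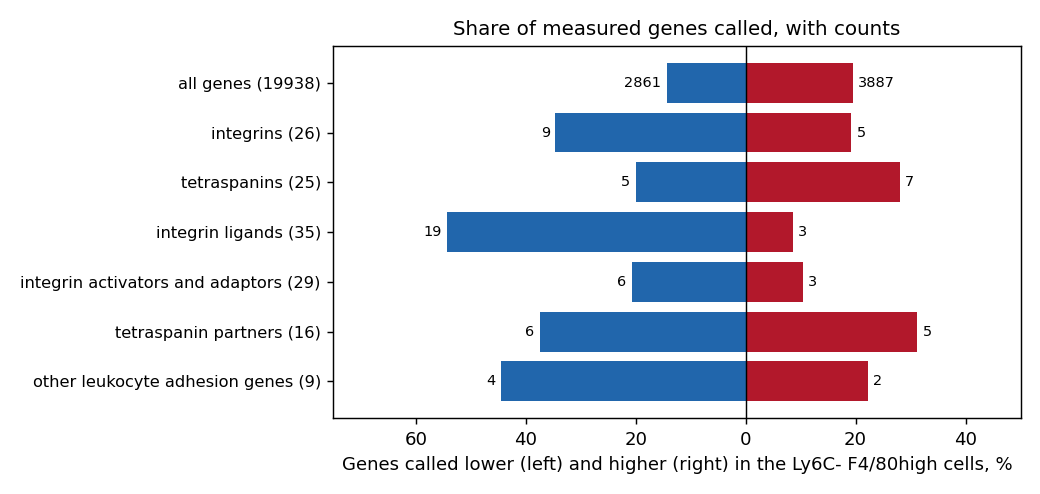
Share of measured genes called lower (left bars) and higher (right bars) in the F4/80high cells, in percent of each list, with the number called at each bar and the number measured beside the list name. Integrin ligands were called lower in 19 of 35 cases and tetraspanin partners in both directions, against 2861 lower and 3887 higher of 19938 genes.

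The sorted cells were checked against markers of macrophages and other cells. All 7 macrophage markers were above background on all 6 arrays, 3 called higher and 2 lower, with mean levels of 10.64 to 10.68 in the F4/80high arrays and 10.37 to 10.42 in the others. The F4/80 gene Adgre1 differed by 0.73 (SE 0.07, limma adjusted p = 4.46e-05). The subsets were sorted on F4/80, so the direction of Adgre1 is no separate check. Mertk and Cd68 were higher too, by 1.57 (SE 0.08, limma adjusted p = 1.08e-06) and 0.31 (SE 0.07, limma adjusted p = 0.00626). Cd14 and Fcgr1 were lower, at -0.42 (SE 0.08, limma adjusted p = 0.00288) and -0.28 (SE 0.07, limma adjusted p = 0.0145). Of 6 B cell markers 3 were above background on at least 1 array, with 1 higher and 0 lower and mean levels of 4.97 to 5.09 and 5.03 to 5.08, F4/80high first. The B cell receptor gene Cd79b was above background on all 6 arrays and higher by 0.53 (SE 0.10, limma adjusted p = 0.00235), while Cd79a and Ms4a1 were under background on all. Of 6 NK cell markers 1 was above background, Prf1, on all 6 arrays and at -0.16 (SE 0.07, limma adjusted p = 0.113), 0 were called, and the defining Ncr1 and Klrb1c were under background on all. Of 10 neutrophil markers 5 were above background. Over all 10 markers 3 were lower and 0 higher, but 2 of the lower ones, Cxcr2 and Ly6g, were under background on all arrays. The mean levels of the 10 were 5.34 to 5.43 and 5.51 to 5.64, F4/80high first. Of 7 dendritic cell markers 5 were above background, with 4 lower and 0 higher and mean levels of 5.25 to 5.35 and 5.76 to 5.84, in the same order. Of the macrophage markers 71.4% were called, of the dendritic cell markers 57.1% and of the neutrophil markers 30%, against 33.8% of all genes. Shares called of the T cell, B cell and platelet markers were 28.6%, 16.7% and 14.3%. Itgal, Itgb7 and Itgax are also genes of lymphocytes and dendritic cells, and the part of those cells in their differences was not tested. Over all probe sets the correlation was 0.990 to 0.993 between arrays of a subset and 0.979 to 0.982 across subsets, so no array stood apart from its subset.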

How the data were processed

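Total RNA of the sorted cells, 150 ng per sample, was amplified and labelled with Ambion and Affymetrix kits and hybridised to 1 array per sample, per the labels' protocols. The deposited values are log2 expression values that the authors made with RMA, per the submitters' processing notes; the software used is not given in these sources. The scale was read from the range of the values. RMA understates differences of weakly expressed genes, and arrays give no read depth. Of 35556 probe sets 21789 had 1 gene symbol in the platform annotation, 1621 several and 12146 none. The 19938 symbols were each represented by the probe set of highest mean, and all 51 member names matched RefSeq (GRCm38.p6). Probe sets with several symbols, 3 of them shared with Itgam, were left out.

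The subsets were compared with limma 3.58.1 (R 4.3.3; lmFit, eBayes, two-sided, no trend, no filter), adjusted over all genes. The test recovered 98.0% of 200 genes changed in simulated data on 19938 genes, with 12 false calls among 208, and 1 call when no gene was changed. The simulated noise was independent between genes and arrays, and far fewer genes were changed than were called here. Changes as small as those of Itgam or Itgav were not simulated, so the recovery does not speak for such calls. Per the labels both subsets came from each mouse, which pairs the arrays by number. Deviations of paired arrays from their subset means correlated at 0.03, -0.08 and 0.09 over genes. The fit without the block was the main one, since no source states a paired test. The members, roles and lists were chosen with earlier results of these data known. Every member is given, with values in each array for the 12 largest called differences and for the members above background of the beta2 family, the other beta subunits and the tetraspanins with CD names; up to 3 called genes in each direction are named from each pathway list by size of difference, and the text says where others were added. Adam10 and the single genes of cell type marker lists were named after their values were seen. A bound sets arrays under background to that level. Alternatives were the mouse as a block, 3 other scalings, 2 filters on low genes, averaging of a gene's probe sets, a trended robust prior, and omission of each array and of each mouse in turn.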

Additional observations from a re-analysis of the deposited data

How the results depend on the processing

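Of the 26 called members 16 were called in the same direction under all of the 17 alternatives that tested them: Cd9, Cd37, Cd151, Tspan3, Tspan4, Tspan13, Tspan17, Tspan32, Itga1, Itga4, Itga6, Itga9, Itgal, Itgb5, Itgb7 and Itgb8. No called member reversed. With the mouse as a replicate block 26 members were called, 14 higher and 12 lower, and 6164 of all genes, and beside the changes of Itgam, Tspan11, Cd81 and Itgb6 given above it changed no other call of a member. A common median gave 1737 lower genes in all, 9 lower members and 2 lower tetraspanins, by the construction of that scaling, which raises the Ly6C- F4/80high arrays. It moved the median difference of all genes to 0.017, cyclic loess moved it to -0.0017, and leaving out genes under background on all arrays moved it to 0.010 and left 3 lower tetraspanins, since it drops Tspan6 and Tspan15. Leaving out 1 array or 1 mouse gave 3998 to 6887 called genes in all and 1321 to 3290 lower ones, 7 to 14 lower members, 8 to 13 called integrins (3 to 6 higher, 5 to 9 lower), 1 to 5 lower tetraspanins and 31 to 43 called genes of the pathway lists, against 49, with the lowest totals of called genes, integrins and pathway genes without mouse 3. Without mouse 1, 2 or 3 the called genes in all numbered 4523, 6123 and 3998, and the cause of that order was not tested. The number of arrays and the signal over background limit what can be said of weakly expressed members.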

Other observations

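Several of the 51 genes are neighbours in the RefSeq gene table. Cd151 and Tspan4, with 1 coding gene between them on chromosome 7, were both higher in the Ly6C- F4/80high cells, by 1.04 and 1.93. Tspan32 and Cd81 are adjacent on the same chromosome and differed by 0.39 and 0.33, the second of these not called. Itgam and Itgax, both on chromosome 7, were called in opposite directions, at -0.23 and 0.37, and Itga1 was lower, at -1.93, next to Itga2, which was under background. Tspan18 and Cd82 on chromosome 2 were both not called, at -0.19 and 0.02. Tspan11 and Tspan9 on chromosome 6 differed by -0.35, a call, and -0.18, not called. These pairs were looked at after the values were seen, and no test of neighbourhood was made.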
